A study of Mus musculus with 4 samples.

Results

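Nr6a1, formerly called Gcnf, is an orphan member of the nuclear receptor family, and the other receptors of that family were followed here in embryos labelled as lacking it. The set comprised 36 receptor genes besides Nr6a1. A probe set was taken where the array annotation gave it to 1 of these symbols alone, and where a gene had several, the one with the highest mean signal over the 4 arrays stood for it. In this way 34 of the 36 receptors were measured, through 91 probe sets, out of 18193 genes and 45037 probe sets on the array. Nr1h2 and Nr2e3 had no probe set with that symbol alone in the annotation used here.

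The mice were embryos at stage E9.0, of genotype wt (2 embryos, called wildtype below) or Gcnf-/- (2 embryos, homozygous mutants, written Nr6a1-/- below), with no treatment named for either. RNA came from the whole embryo, so that a lower signal cannot be separated into fewer cells of a type and less RNA per cell. The mutation is constitutive, so every tissue carries it from the start of development. The study's methods allow a collection window that runs past the labelled stage. The mutant line is described there as kept on a C56BL/6 background (spelled as in the methods). Litter and somite number of the embryos are not given here. Signals are log2 values made by the robust multi-array average (RMA). A fold change is mutant minus wildtype on that scale and an error after ± is limma's moderated standard error (SE, 2 embryos of each genotype), and a probe set was called when limma's Benjamini-Hochberg adjusted p was 0.05 or lower with a change of at least 2-fold. A gene is said to pass the test when this adjusted p was 0.05 or lower, whatever the size of the change. Signals of different probe sets are not compared with each other, since each probe set binds its transcript with its own strength.

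Wildtype replicate 1 carried Xist signal of a female (13.11, against 6.44 to 6.68 in the other 3 embryos, which were male), and the probe sets for 18S ribosomal RNA read higher in mutants by a mean log2 difference of 1.06. On the 27 probe sets of the poly-A spike-in controls the same wildtype replicate 1 stood apart, at -0.66 from the mean of the other 3 arrays on the log2 scale. All 9 markers of embryonic tissues, among them Sox2 of the neural plate and Meox1 of the somites, lay at or above the median signal of all probe sets (6.84). Their changes ran both ways and none passed. Tbx6 of the presomitic mesoderm stood at 0.71, the heart muscle genes Tnnt2 and Myl7 at 0.52 and 0.41, and Meox1 at -0.62 (limma adjusted p = 0.0535, 0.0742, 0.114 and 0.105). At an unadjusted limma p under 0.05, 4 of the 9 were higher (44.4%, against 11.9% of all genes) and 1 was lower (11.1%, against 11.9%). Both mutants lay above both wildtypes for 6 (66.7%, against 26.2%) and below them for 2 (22.2%, against 30.4%). Nr6a1 itself read 11.53 and 11.80 in wildtype and 11.87 and 12.14 in mutants with its brightest probe set, a difference of 0.34. Its other probe sets also read higher in mutants, by 0.56, 0.39, 0.30 and 0.05, and none passed. Where its probes lie relative to the mutated part is not known here, so this signal does not check the labels.

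Nuclear receptors are transcription factors that read small lipid-soluble molecules. Most carry a zinc finger domain that binds variants of the core motif AGGTCA and a pocket that takes up steroid hormones, thyroid hormone, vitamin D, oxysterols, bile acids or haem, and the ligand changes whether the receptor holds corepressors or coactivators. Many act as partners of a retinoid X receptor, some as pairs of themselves and some alone. Nr6a1 has no established ligand, binds a direct repeat of the core motif without spacer, and is known as a repressor of the pluripotency gene Pou5f1 through a site that other receptors, Nr5a2 among them, can also occupy.

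Few of the 34 receptors differed clearly between the genotypes, and those that did were higher in mutants. Nr0b1, a receptor-like corepressor, rose 3.93-fold and Rora, an orphan receptor of the clock and cerebellum, rose 2.85-fold. The retinoid X receptor gene Rxrg rose 1.66-fold, short of the 2-fold threshold. In all, 2 of 34 receptors were called higher (5.88%), against 0.423% of all 18193 genes, and 0 were called lower, against 0.121%. At an adjusted p of 0.05 or lower whatever the fold, 3 receptors were higher (8.82%), against 1.02% of all genes, and 0 were lower, against 0.374%. At an unadjusted p under 0.05 there were 9 higher (26.5%) and 3 lower (8.82%), against 11.9% of all genes higher and 11.9% lower. The calls need all 4 arrays. With any 1 array left out, 0 receptors passed in limma, whereas 7 to 10 had an unadjusted p under 0.05, and the same was true of the whole array, where 0 to 9 probe sets were called against 172.

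**Figure D1:**
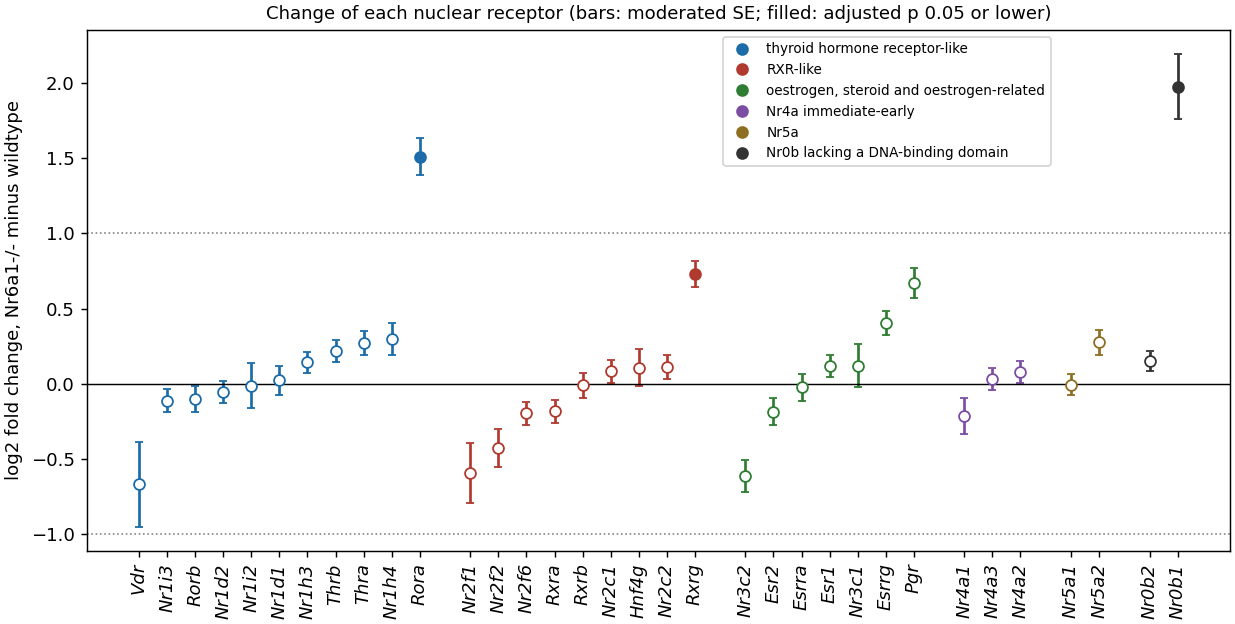
Log2 fold change of each of the 34 receptors (vertical axis, mutant minus wildtype, with error bars of 1 SE from limma over 2 embryos of each genotype), ordered by value within each class. Filled points had an adjusted p of 0.05 or lower and dotted lines mark 2-fold; only Nr0b1 at 1.97 and Rora at 1.51 lie beyond them, and Rxrg at 0.73 is the third filled point.

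Most receptors had changes close to 0, though a smaller share of them than of all genes. The median log2 fold change of the 34 was 0.05, against -0.01 for all genes, and 27 of them (79.4%) lay within 0.5 of 0 on the log2 scale, against 94.8% of all genes. The median size of the change, whatever its direction, was 0.17 for the receptors and 0.11 for all genes. Of the 34, 15 lay below the wildtype mean (44.1%), against 52.8% of all genes. Both mutants lay above both wildtypes for 14 receptors (41.2%, against 26.2% of all genes) and below them for 10 (29.4%, against 30.4%). The other 10 overlapped. At signals at or above the array's median, 18 receptors were measured and 1 of them, Rora, was called. The other 16, Nr0b1 and Rxrg among them, were dimmer. RMA signals of dim probe sets can hold a share of unspecific binding, which can shrink their fold changes. Its part in these values was not tested.

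Nr0b1, also called Dax1, lacks the DNA-binding domain of its family and acts by holding other receptors, Nr5a1 and Nr5a2 above all, in a repressed state. In the early embryo it belongs to the network of pluripotent cells, and later it is needed in the adrenal gland and gonad. Its single probe set read 4.40 and 5.06 in wildtype and 6.66 and 6.74 in mutants. Both mutants stood well above both wildtypes, and the wildtypes differed from each other more than the mutants did. The log2 fold change was 1.97 ± 0.22 (adjusted p = 0.0412 by limma, from 2 embryos of each genotype). Nr0b1 lies on the X chromosome and the wildtype embryo with the lower reading was the female. Without it, among male embryos alone, the difference was 1.65 (limma adjusted p = 0.134), and over the 4 arrays left out in turn it ran from 1.65 to 2.31 with adjusted p from 0.0545 to 0.242.

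Rora, the retinoic acid receptor-related orphan receptor alpha, binds its sites alone, activates the clock gene Arntl in competition with the Nr1d receptors, and is required by Purkinje cells of the cerebellum. Its brightest probe set read 6.75 and 7.07 in wildtype and 8.45 and 8.39 in mutants. The genotypes were far apart for their spread, and the log2 fold change was 1.51 ± 0.12 (adjusted p = 0.0231 by limma, from 2 embryos of each genotype). Leaving out 1 array in turn gave 1.35 to 1.67, with limma adjusted p from 0.068 to 0.213. The array holds 9 probe sets for Rora, more than for any other receptor of the set, and their values were spread. Of these, 3 were called, at 1.51, 1.35 and 1.12. Another pair stood at 0.90 and 0.69 and missed the threshold (limma adjusted p = 0.101 and 0.0574). The remaining 4 stayed between -0.12 and 0.10. As the mean of all 9, Rora stood at 0.62, which is short of 2-fold (limma adjusted p = 0.0224). Where in the gene each probe set lies was not tested.

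Rxrg, the retinoid X receptor isotype of muscle and brain, has 1 probe set. It read 6.36 and 6.29 in wildtype and 6.97 and 7.13 in mutants. The groups did not overlap, and the log2 fold change was 0.73 ± 0.09 (adjusted p = 0.0438 by limma, from 2 embryos of each genotype). With 1 array left out the change ran from 0.65 to 0.81 and the limma adjusted p from 0.173 to 0.289. The other retinoid X receptor isotypes did not pass. Rxrb, the widely expressed isotype, read 10.43 and 10.38 in wildtype and 10.47 and 10.32 in mutants, and its difference of -0.01 had a 95% interval from -0.23 to 0.20. Rxra, the isotype needed for heart growth, read 8.92 and 8.81 against 8.69 and 8.67, a difference of -0.18 ± 0.08 (limma adjusted p = 0.268).

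**Figure D2:**
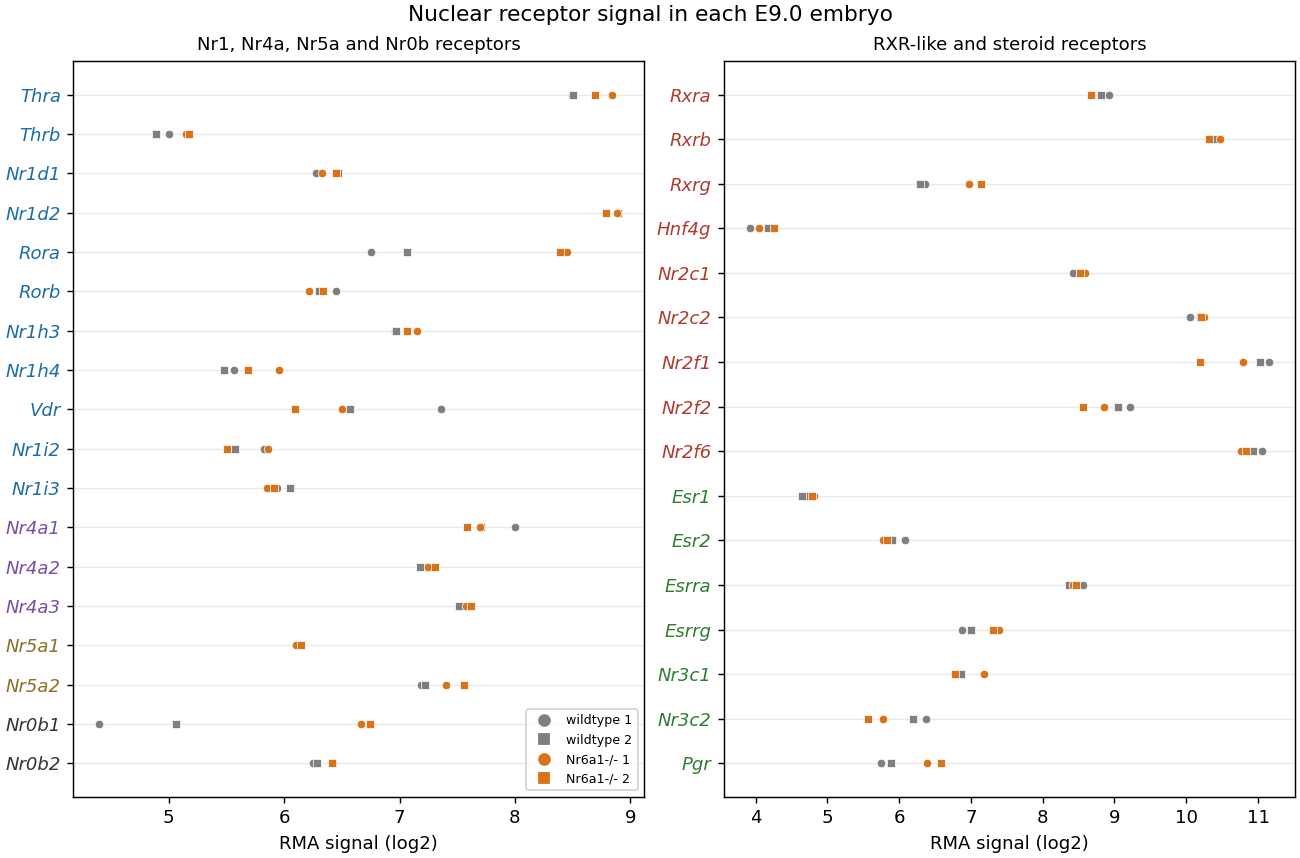
RMA log2 signal (horizontal axes) of the 34 receptors in each embryo, with grey for wildtype, orange for Nr6a1-/-, circles for replicate 1 and squares for replicate 2; gene names are coloured by receptor class. Rora, Nr0b1 and Rxrg show the mutant pair apart from the wildtype pair, whereas Vdr and Nr2f1 differ as much within a genotype as between the genotypes.

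The sequence before the start of these 3 genes is shown because they passed the test in the same direction and because the core motif is what Nr6a1 and its relatives bind. Windows are the 250 bases upstream of each RefSeq start (GRCm38.p6), given 5′ to 3′ on the strand of the gene, with matches to AGGTCA on either strand in capitals. The windows lie at chr9:68653536-68653785 for Rora, chrX:86191525-86191774 for Nr0b1 and, for the pair of starts of Rxrg, chr1:167598112-167598361 and chr1:167618015-167618264, all on the plus strand.
Rora: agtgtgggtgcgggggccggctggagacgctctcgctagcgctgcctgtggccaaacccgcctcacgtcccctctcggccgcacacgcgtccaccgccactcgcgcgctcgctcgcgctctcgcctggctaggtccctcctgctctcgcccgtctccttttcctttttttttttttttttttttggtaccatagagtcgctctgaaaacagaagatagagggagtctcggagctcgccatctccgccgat
Nr0b1: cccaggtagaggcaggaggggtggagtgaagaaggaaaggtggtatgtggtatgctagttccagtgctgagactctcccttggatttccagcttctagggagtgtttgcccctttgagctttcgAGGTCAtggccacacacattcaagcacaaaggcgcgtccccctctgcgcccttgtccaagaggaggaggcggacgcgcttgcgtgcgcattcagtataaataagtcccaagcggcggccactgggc
Rxrg, start 1: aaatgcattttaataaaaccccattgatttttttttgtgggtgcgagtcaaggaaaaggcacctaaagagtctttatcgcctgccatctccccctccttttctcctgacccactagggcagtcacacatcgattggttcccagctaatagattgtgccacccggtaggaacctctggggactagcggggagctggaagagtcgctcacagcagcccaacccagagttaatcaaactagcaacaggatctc
Rxrg, start 2: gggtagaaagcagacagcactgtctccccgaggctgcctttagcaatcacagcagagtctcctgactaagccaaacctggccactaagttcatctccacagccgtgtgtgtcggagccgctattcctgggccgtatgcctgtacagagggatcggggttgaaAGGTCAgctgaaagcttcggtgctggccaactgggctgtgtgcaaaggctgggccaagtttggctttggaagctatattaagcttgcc

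Nr0b1 had 1 match, beginning 126 bases before its start, and the second window of Rxrg had 1, beginning 88 bases before its start. The windows of Rora and of the first start of Rxrg had 0. Over the receptors with a window (32 of 36, 44 windows), 7 windows held the core motif (15.9%), against 14.0% of all 32851 windows. They belonged to Nr0b1, Nr1d2, Nr1h4, Nr5a2, Rxra, Rxrg and Thrb. The direct repeat AGGTCAAGGTCA, which contains the core motif by construction, was in 0 of the 44 and in 2 of all windows, and the extended form TCAAGGTCA was in 0 of the 44 and in 0.387% of all windows. A match is a run of letters in a short window and was not tested as a binding site.

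Among the other thyroid hormone receptor-like genes, none passed. Thra and Thrb, the thyroid hormone receptors, read above wildtype, Thra at 8.49 and 8.50 against 8.84 and 8.70, a difference of 0.27 ± 0.08 (limma adjusted p = 0.164), and Thrb by 0.22 ± 0.08 (limma adjusted p = 0.208). Vdr, the vitamin D receptor, had the lowest fold change of the set. It read 7.36 and 6.57 in wildtype and 6.50 and 6.10 in mutants, so that wildtype replicate 1 stood above the other 3 embryos and the groups were separated by a narrow gap. Its difference was -0.67 ± 0.28 (limma adjusted p = 0.278), and without wildtype replicate 1 it was -0.27. Its second probe set, with less spread, gave -0.64 ± 0.10 (limma adjusted p = 0.0664). The haem-binding repressors of the clock, Nr1d1 and Nr1d2, stood at 0.02 and -0.06, and Rorb, the relative of Rora in the nervous system, at -0.10. Nr1h3, a liver X receptor that senses oxysterols, stood at 0.14, the bile acid receptor Nr1h4 at 0.30, and the xenobiotic sensors Nr1i2 and Nr1i3 at -0.01 and -0.11.

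In the RXR-like group, the COUP transcription factors read lower in mutants without passing the test. Nr2f1, an orphan receptor of neural crest, brain and eye, read 11.15 and 11.03 in wildtype and 10.79 and 10.20 in mutants. Mutant replicate 2 was the lowest by far, and the difference of -0.59 ± 0.20 (moderated SE) did not pass (limma adjusted p = 0.201). It was -0.30 without mutant replicate 2. Nr2f2, which directs vein identity and acts in mesenchyme, read 9.22 and 9.04 against 8.85 and 8.56, a difference of -0.43 ± 0.13 (limma adjusted p = 0.162), and its 6 probe sets all lay below 0, from -0.45 to -0.15. Nr2f6 stood at -0.20 ± 0.08 (limma adjusted p = 0.251). With their brightest probe sets all 3 had both mutants below both wildtypes, a pattern shown by 30.4% of all genes. The second probe set of Nr2f6 stood at -0.03 and its groups overlapped. The testicular orphan receptors Nr2c1 and Nr2c2, which bind direct repeats and repress embryonic globin genes with partners, stood at 0.08 and 0.11. Hnf4g, a relative of the liver and gut regulator Hnf4a, read 3.92 and 4.17 against 4.05 and 4.26, and with mutant values inside and above the wildtype range its difference was 0.11 ± 0.12.

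Among steroid and oestrogen-related receptors the values nearest the threshold ran in both directions. Pgr, the progesterone receptor, read 5.75 and 5.89 in wildtype and 6.38 and 6.59 in mutants, with a difference of 0.67 ± 0.10 (adjusted p = 0.0622 by limma, from 2 embryos of each genotype). Its other probe sets, which are dimmer, stood at -0.05 and 0.01. Nr3c2, the mineralocorticoid receptor, read 6.37 and 6.19 against 5.77 and 5.57, with a difference of -0.61 ± 0.11 (limma adjusted p = 0.0790). Both pairs were clear of each other. Esrrg, an orphan receptor of oxidative tissues such as heart, stood at 0.40 ± 0.08 (limma adjusted p = 0.0966) with its brightest probe set, at 0.44 with the second and at -0.15 with the dimmest. Esrra, its widely expressed relative, stood at -0.02 and the glucocorticoid receptor Nr3c1 at 0.12, with mutant replicate 1 at 7.18 and the other 3 embryos between 6.78 and 6.86. The oestrogen receptors Esr1 and Esr2 stood at 0.12 and -0.18.

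The immediate-early receptors Nr4a1, Nr4a2 and Nr4a3, which are induced by acute stimulation of cells and need no ligand, did not pass. Nr4a1 read 8.0005 and 7.7042 in wildtype and 7.6935 and 7.5808 in mutants, a difference of -0.22 ± 0.12 (limma adjusted p = 0.389). Nr4a2, a regulator of dopamine neurons, depended on the probe set. The brightest gave 0.08 and another 0.18, whereas the other 4 lay at -0.21, -0.30, -0.39 and -0.51, the last with a limma adjusted p of 0.0707. Nr4a3 stood at 0.03. Of the Nr5a receptors, which are held active by phospholipids, Nr5a2 read 7.19 and 7.22 in wildtype and 7.40 and 7.56 in mutants, a difference of 0.28 ± 0.08 (limma adjusted p = 0.172), and its 4 probe sets all lay above 0, from 0.05 to 0.31. Nr5a1, the regulator of adrenal and gonad and the best known partner of Nr0b1, stood at -0.005 with a 95% interval from -0.18 to 0.17. Nr0b2, the other receptor without a DNA-binding domain and a corepressor of bile acid synthesis, read 6.25 and 6.28 against 6.42 and 6.42. Its groups were apart, but the difference of 0.15 ± 0.07 did not pass (limma adjusted p = 0.295).

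Probe sets of one receptor often lay on both sides of 0. Of the 21 receptors with more than 1 probe set, 7 had all of them on the same side and 14 did not, and in 0 of these did probe sets at an unadjusted p under 0.05 oppose each other. Over the 91 probe sets, 5 were higher at an adjusted p of 0.05 or lower, those of Nr0b1 and Rxrg and 3 of Rora, and 0 were lower, against 0.719% of all probe sets higher and 0.255% lower. Besides Rora, Pgr, Esrrg and Nr4a2, the ranges that crossed 0 were those of Nr2c1 (-0.14 to 0.08), Hnf4g (-0.10 to 0.11), Esr1 (-0.12 to 0.14), Esrra (-0.02 to 0.06), Nr1i2 (-0.01 to 0.04), Rxra (-0.18 to 0.00), Nr2c2 (-0.13 to 0.25), Nr1d2 (-0.06 to 0.27), Nr4a3 (-0.23 to 0.03) and Nr3c1 (-0.03 to 0.42).

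**Figure D3:**
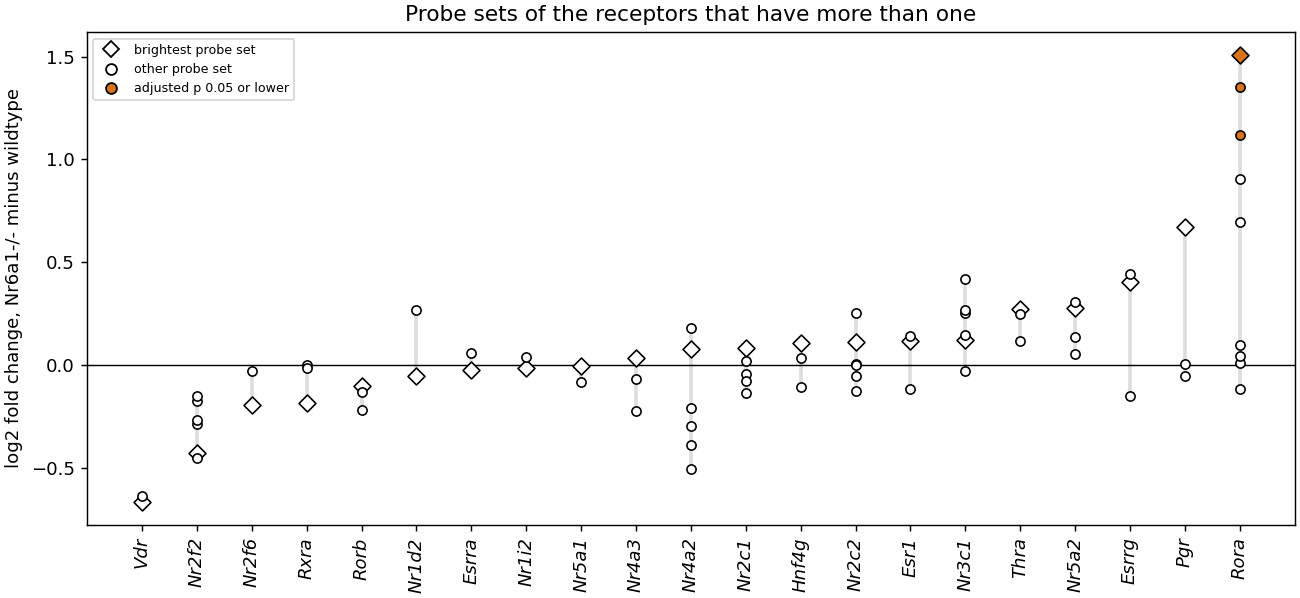
Log2 fold change of every probe set (vertical axis, Nr6a1-/- minus wildtype) of the 21 receptors with more than 1; diamonds mark the brightest probe set, which stands for the gene, and filled symbols had an adjusted p of 0.05 or lower. Rora spans -0.12 to 1.51 and holds all 3 filled symbols, and Nr4a2 spans -0.51 to 0.18.

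Genes whose products work with the receptors were counted in 12 lists of known roles, 117 genes measured in all. The lists were made with earlier results of these data known, so their shares beside all genes are descriptive only. Of the 117, 5 were called higher (4.27%, against 0.423% of all genes) and 0 lower. At an adjusted p of 0.05 or lower by limma, whatever the fold, 7 were higher (5.98%, against 1.02%) and 0 lower. The median log2 fold change was -0.01, as for all genes. Of the other members of the receptor family, Nr6a1 included, 7 of 10 measured lay above wildtype (median 0.08) and 0 passed. Hnf4a, the liver and yolk sac regulator, read 10.63 and 10.47 in wildtype and 10.05 and 10.11 in mutants (-0.47 ± 0.08; limma adjusted p = 0.0824). Of 21 coactivators, 17 lay below wildtype (81%, against 52.8% of all genes), with a median of -0.15. Both mutants lay below both wildtypes for 14 (66.7%, against 30.4%). At an unadjusted limma p under 0.05, 6 were lower (28.6%, against 11.9%) and 2 higher (9.52%, against 11.9%). Only 1 passed, in the other direction (4.76%): the acetyltransferase gene Kat2b rose 1.51-fold (limma adjusted p = 0.0483). Ncoa7 stood at -0.53 (limma adjusted p = 0.0580) and Crebbp, the CREB-binding acetyltransferase, at -0.32 (limma adjusted p = 0.112). Of 11 corepressors, 6 lay below wildtype (median -0.01) and 1 passed. Bcl11b, a zinc finger protein that binds COUP transcription factors, read 6.33 and 6.54 in wildtype and 9.26 and 9.22 in mutants and rose 6.99-fold (limma adjusted p = 0.00447). Nrip1, a ligand-dependent corepressor, stood at -0.43 and Bcl11a, the relative of Bcl11b, at 0.20 (limma adjusted p = 0.114 and 0.234). Of 6 chaperones that hold steroid receptors ready for hormone, 5 lay below wildtype (83.3%, against 52.8% of all genes). Their median was -0.10 and 0 passed, and Fkbp5 had the lowest value at -0.48.

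The lists of ligand enzymes and of known targets were counted in the same way. Of all genes, 1.02% passed as higher and 0.374% as lower, and 52.8% lay below the wildtype mean. Of 11 genes of ligand synthesis and breakdown, 6 lay below wildtype (median -0.01) and 1 passed as higher (9.09%). Cyp27a1, the sterol 27-hydroxylase that makes a ligand of the liver X receptors, read 7.45 and 7.46 in wildtype and 8.01 and 8.01 in mutants and rose 1.47-fold (limma adjusted p = 0.0443). Among targets of the liver X receptors, 5 of 6 had values above wildtype (median 0.19) and 0 passed. The cholesterol exporter gene Abca1 stood at 0.46 and the phospholipid transfer gene Pltp at 0.50 (limma adjusted p = 0.106 and 0.149). Of 14 clock genes, 9 lay above wildtype (median 0.07) and 0 passed. Ciart and Dbp, both outputs of the clock, stood at 0.51 and 0.46, and the clock repressor gene Per1 at -0.51 (limma adjusted p = 0.0938, 0.102 and 0.153). Of 9 glucocorticoid receptor targets, 5 lay above wildtype (median 0.12) and 1 passed as higher (11.1%). Ddit4, an inhibitor of mTORC1 that is also induced by other stresses, rose 4.89-fold (limma adjusted p = 0.0174), and Klf9 stood at 0.53 (limma adjusted p = 0.0541) while Fkbp5 stood at -0.48 (limma adjusted p = 0.102). Of 12 immediate-early genes, 8 lay below wildtype (median -0.07) and 0 passed. Jun stood at 0.55, Ier3 at 1.05 and Dusp1, a MAP kinase phosphatase gene, at 0.34 (limma adjusted p = 0.0620, 0.109 and 0.132). Of 5 targets of the oestrogen-related receptors, 3 lay above wildtype (median 0.01) and 0 passed, with Cycs at -0.41, Mfn2 at -0.55 and Acadm at 0.27. Of 7 bile acid and xenobiotic targets, 4 lay above wildtype (median 0.01) and 0 passed, with the hindbrain and gut growth factor gene Fgf15 at 0.97 (limma adjusted p = 0.0541).

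The list of pluripotency factors known to act with Nr5a2 and Nr0b1 held 3 of the 5 calls among the related genes. That was 37.5% of its 8 genes, against 0.423% of all genes called higher. As with the other lists, it was made with earlier results of these data known, so the share is descriptive only. Pou5f1 read 5.23 and 5.99 in wildtype and 10.66 and 11.31 in mutants, Nanog 3.87 and 4.33 against 7.27 and 7.74, and Klf4 6.81 and 7.13 against 8.41 and 8.57 (limma adjusted p = 0.0136, 0.0136 and 0.0267). Tfcp2l1, a factor of naive pluripotent cells, ran the other way at -0.78 without passing (limma adjusted p = 0.0744). Of the 8 genes, 6 lay above wildtype (median 0.38). Nr0b1 at 1.97 and Nr5a2 at 0.28 were higher on the same arrays, only the first of them past the test. Whether Nr0b1 and these factors were expressed in the same cells was not tested.

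**Figure D4:**
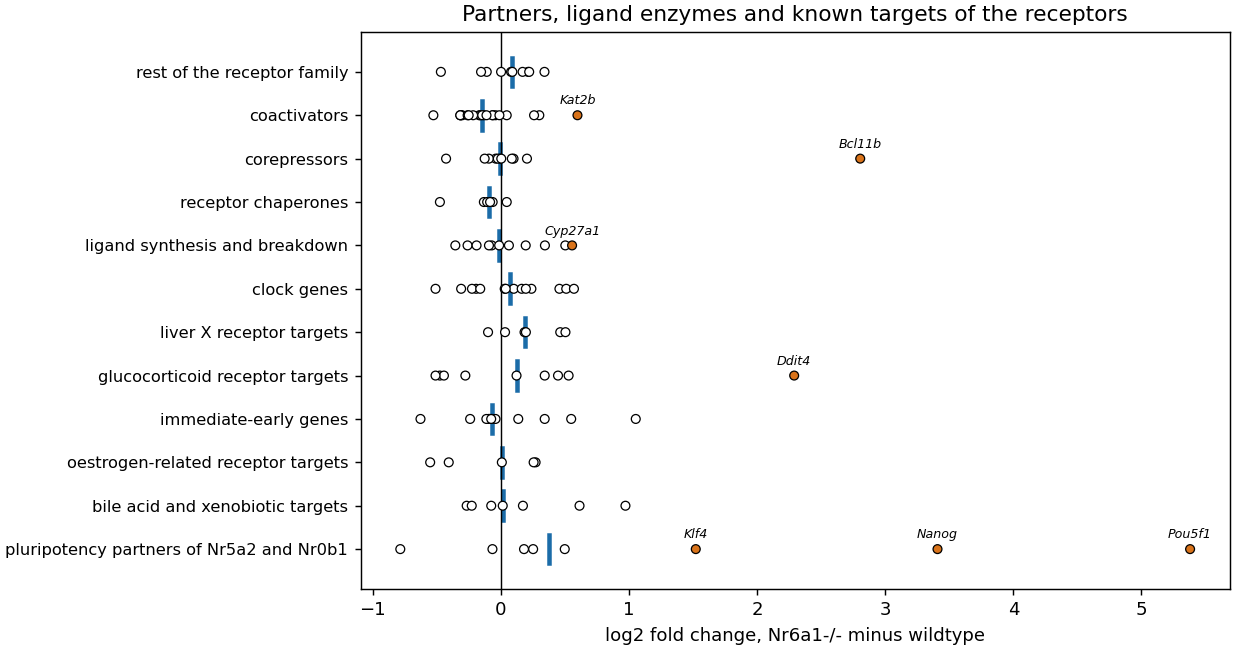
Points are the measured genes of the 12 lists of receptor partners, ligand enzymes and targets, placed by log2 fold change (mutant minus wildtype) along the horizontal axis, with list medians as blue bars and an adjusted p of 0.05 or lower filled and named. Fkbp5, Per1 and Dusp1 each stand in more than 1 list; Pou5f1 at 5.38, Nanog at 3.41 and Bcl11b at 2.80 lie farthest from 0.

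Markers of other cells that a whole embryo sample can hold were read on the same arrays, and none passed. Of 10 markers of yolk sac endoderm, Hnf4a among them, 8 lay below wildtype (80%, against 52.8% of all genes), 6 with both mutants below both wildtypes (60%, against 30.4%). At an unadjusted limma p under 0.05, 3 were lower (30%, against 11.9%) and 0 higher. The log2 of the summed signal of the 10 was 16.98 and 16.84 in wildtype and 16.84 and 16.66 in mutants. Of 7 markers of primitive red cells, 7 lay above wildtype with a median of 0.41, 6 with both mutants above both wildtypes (85.7%, against 26.2% of all genes), and 4 were higher at an unadjusted p under 0.05 (57.1%, against 11.9%). Alas2 of haem synthesis stood at 0.98, the erythroid factors Nfe2 and Klf1 at 0.90 and 0.57, and the membrane protein gene Epb42 at 0.41 (limma adjusted p = 0.0848, 0.0603, 0.110 and 0.119). The 3 globin genes stood between 0.07 and 0.15, and the summed signal, which they carry, was 16.49 and 16.54 against 16.68 and 16.61. For macrophages 5 of 7 markers lay below wildtype (71.4%, against 52.8% of all genes), 4 with both mutants below both wildtypes (57.1%, against 30.4%). At an unadjusted limma p under 0.05, 2 were lower (28.6%, against 11.9%) and 0 higher. The sums over the 7 markers were 9.42 and 9.37 against 9.30 and 9.33. Csf1r and Cd68, the 2 at or above the median signal, stood at 0.12 and -0.20. Trophoblast and decidua, cells that could come along in the dissection, had sums of 8.59 and 8.44 against 8.63 and 8.55 over the 6 markers measured, with Tpbpa, Ctsq, Psg17, Ascl2 and Prl8a2 under the median signal. The part of these cells, of the embryonic tissues and of the 18S and poly-A differences in the receptor values was not tested.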

How the data were processed

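Total RNA of 2 wildtype and 2 Nr6a1-/- whole embryos was labelled and hybridised to Affymetrix GeneChip mouse arrays, 1 per embryo. The authors deposited log2 signals made with RMA, whose version and chip definition the sources used here do not state. Its quantile step hides any shift shared by most transcripts. Of 45101 probe sets, 64 controls were left out. The platform annotation gave 77.6% of the remaining 45037 a single symbol, which was checked through Entrez identifiers against RefSeq (GRCm38.p6; 99.4% matched, 0 changed).

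Genotypes were compared in R 4.3.3 with the linear model and eBayes step of limma 3.58.1, genotype being the only term, with Benjamini-Hochberg adjustment across all 45037 probe sets and the study's thresholds. An exact two-sided permutation of 2 against 2 arrays has 0.333 as its smallest p, so calls rest on the spread that limma shares across probe sets. The SE is the moderated one, and precision is limited by the number of arrays. Receptors, lists and alternatives were chosen with earlier results of these data known, and lists are described by counts and medians. All receptors are named, and of each related list the genes past the test and up to 3 of smallest p. The alternatives were the replicate block, each array left out, brighter probe sets, repeated quantile normalisation, median centring, intensity trend, robust eBayes, treat, no shared probe sets, and the mean or smallest-p probe set. RefSeq promoter windows matched 32 of 36 receptors.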

Additional observations from a re-analysis of the deposited data

How the results depend on the processing

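With 2 arrays per genotype the calls rest on each array. Of the 2 receptors called higher, 0 remained with any array left out (range 0 to 0), 0 of the 3 at an adjusted p of 0.05 did (0 to 0), and related genes called went from 5 to between 0 and 1; fewer samples were fitted, and the lone sample of a genotype was taken to vary like the others. Same-numbered samples share only a number (correlation of their deviations 0.06). With the replicate number as a block, 0 receptors were called, 0 had an adjusted p of 0.05 or lower and 0 related genes were called (limma adjusted p = 0.167 for Rora and Nr0b1 and 0.178 for Rxrg; 12 receptors at an unadjusted p under 0.05, as without the block), with 1 fewer residual degree of freedom. On the whole array the block called 0 probe sets, against 172 without it. With treat, which tests against 2-fold, there were 0 and 0 receptors and 1 related gene, with 8 probe sets called on the whole array. Among brighter probe sets 1 of 18 receptors was called, since Nr0b1 is dim. With an intensity trend 5 receptors had an adjusted p of 0.05 or lower (Rora, Nr0b1, Rxrg, Pgr and Nr3c2). Pgr also passed with repeated quantile normalisation, Nr3c2 with the mean of probe sets and Esrrg among brighter probe sets (limma adjusted p = 0.0456, 0.0448 and 0.0394). Averaged over probe sets 1 receptor was called, as Rora fell short of 2-fold. The median of the receptors was 0.0146 with the mean of probe sets and 0.0305 with the smallest-p probe set.

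The number of receptors called lower was 0 in all 14 alternatives. That count says little for the block, treat and the fits with 1 array left out, which called few or no probe sets at all. Rora, Nr0b1 and Rxrg stayed above 0 wherever they were measured. In 11 receptors the sign turned, none of them past the test, and all 11 lay near 0 with their brightest probe set. With 1 array left out, these were Nr1d1 (-0.0748 to 0.119), Nr1i2 (-0.191 to 0.162), Rxrb (-0.0908 to 0.0679), Hnf4g (-0.0188 to 0.232), Esrra (-0.121 to 0.0734), Nr4a3 (-0.0123 to 0.0775), Nr5a1 (-0.0281 to 0.0184) and Nr3c1 (-0.0821 to 0.322). Rxrb turned to 0.00531 with repeated quantile normalisation. With the mean of probe sets, Nr1d2 (0.107), Nr1i2 (0.0122), Nr2c1 (-0.0314), Esrra (0.017), Nr4a2 (-0.192) and Nr4a3 (-0.0874) turned, and with the smallest-p probe set Nr1d2 (0.269), Nr1i2 (0.0389), Hnf4g (-0.105), Nr2c1 (-0.137), Esrra (0.058), Nr4a2 (-0.508) and Nr4a3 (-0.225). The cause was not tested.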
